A study of Mus musculus with 9 samples.

Results

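The cytosolic ribosomal protein genes and their named pseudogene copies were described in embryonic mouse cortex. Members were the rows of the deletion and knock-in comparison tables with a mean normalised count (baseMean, over all samples) of at least 20 whose symbol was that of a small subunit gene (Rps), a large subunit gene (Rpl), Rpsa or Rplp0 to Rplp2, with or without a -ps suffix. This gave 233 of the 19292 rows at that level, and of the 39184 rows found in both tables. Of the 233, 80 carried a gene symbol and 153 a -ps symbol, which marks copies of 51 of the 80 genes. A further 106 rows matched by symbol and lay under the minimum. Just outside it were Rpl31-ps15 (19.3), Rpl19-ps9 (18.1) and Rps15a-ps8 (16.8), and just inside it Rpl15-ps5 (20.5), Rpsa-ps3 (21.5) and Rpl31-ps18 (23.0).

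The study is an RNA-seq comparison of 9 libraries of mouse cortices at E16.5, 3 per genotype of HAR1984, a human accelerated region. HAR1984 was removed from both alleles by CRISPR in the deletion (del/del), was human on one allele and mouse on the other after CRISPR knock-in (Hs/Mm), and was mouse on both alleles in the controls (Mm/Mm). Deletion replicate 3 is labelled E16.6, and the labels name 1 batch and call the cells neural progenitors. Libraries were made from total RNA by mRNA capture. Both comparisons use the same 3 control libraries, so their values are set side by side here and are not 2 independent observations. Values per library were not used, since the columns that carry library names hold no measurement of a library (details in the processing account). Each result is therefore a log2 fold change of 3 against 3 libraries with its deposited SE. BaseMean was equal in both comparisons for all 39184 shared rows. The sources used here do not say whether a joint fit of all 9 libraries gave the SEs of both. If so, SE and p-values also rest on the spread of the group left out of a comparison. Nothing in the labels says whether the libraries came from separate litters.

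Ribosomes are built from a small 40S and a large 60S subunit, each of ribosomal RNA and a set of proteins made in near-equal amounts, with acidic P proteins forming a stalk on the large subunit that recruits translation factors. Proliferating progenitors of the embryonic cortex make many ribosomes. Ribosomal protein mRNAs are short and abundant, carry a 5′ terminal oligopyrimidine tract that puts their translation under mTORC1 control, and have left many reverse-transcribed copies in mammalian genomes, which lack introns and the promoter of their parent. Most such processed pseudogenes are taken to be silent, and reads that stem from a parent mRNA can be placed on a copy that has the same letters.

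The likeness of copies to parents is shown first because it bears on every value that follows. The lines give the first 90 coding bases of the parent as in GENCODE M21 transcripts (GRCm38), and the matching stretch of the copies that passed the test below, of Rpsa-ps2 and Rpl23a-ps3, whose gaps to their parent had the smallest p-values among the rest in the knock-in, and of Rpsa-ps10, the most counted copy, with bases that differ from the parent in capitals. All of these copies are annotated as processed pseudogenes, single exons far from their parent: Rpsa-ps11 at chr4:59162268-59163156 (minus strand), Rpsa-ps2 at chr10:128776371-128777250 (minus), Rpsa-ps10 at chr3:150072658-150073542 (minus), Rps19-ps1 at chr14:53213730-53214167 (plus), Rps19-ps6 at chr12:110898114-110898551 (plus), Rps15-ps2 at chr6:58017506-58017943 (plus), Rps2-ps11 at chr9:108358202-108359069 (minus) and Rplp0-ps1 at chr3:93278141-93279073 (plus). In this stretch Rpsa-ps2 is 1 base and Rps2-ps11 2 bases shorter than the parent. Both lack the parent's first base because the annotated copy starts after it, which shows no deletion in the genome there.
Rpsa-ps11: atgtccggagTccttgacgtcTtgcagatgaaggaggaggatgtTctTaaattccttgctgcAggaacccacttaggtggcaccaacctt
Rpsa-ps2: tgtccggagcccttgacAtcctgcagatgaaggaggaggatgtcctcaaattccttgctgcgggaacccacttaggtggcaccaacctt
Rpsa-ps10: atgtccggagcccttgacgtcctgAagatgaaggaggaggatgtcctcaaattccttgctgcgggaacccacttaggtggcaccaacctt
Rpsa: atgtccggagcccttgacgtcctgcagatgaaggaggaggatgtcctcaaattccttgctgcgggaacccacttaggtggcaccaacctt
Rps19-ps1: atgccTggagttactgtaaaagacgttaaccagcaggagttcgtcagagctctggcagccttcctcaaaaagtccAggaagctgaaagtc
Rps19-ps6: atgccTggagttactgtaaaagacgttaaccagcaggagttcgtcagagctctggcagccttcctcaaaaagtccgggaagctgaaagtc
Rps19: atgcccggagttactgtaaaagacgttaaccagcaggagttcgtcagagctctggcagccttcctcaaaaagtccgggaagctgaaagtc
Rps15-ps2: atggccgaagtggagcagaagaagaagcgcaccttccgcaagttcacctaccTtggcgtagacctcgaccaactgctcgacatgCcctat
Rps15: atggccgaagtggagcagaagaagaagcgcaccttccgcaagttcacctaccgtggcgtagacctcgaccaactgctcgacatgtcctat
Rps2-ps11: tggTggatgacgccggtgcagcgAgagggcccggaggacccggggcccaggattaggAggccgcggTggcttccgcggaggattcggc
Rps2: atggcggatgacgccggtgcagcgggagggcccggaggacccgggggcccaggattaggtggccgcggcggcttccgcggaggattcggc
Rplp0-ps1: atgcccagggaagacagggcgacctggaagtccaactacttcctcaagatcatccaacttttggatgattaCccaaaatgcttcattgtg
Rplp0: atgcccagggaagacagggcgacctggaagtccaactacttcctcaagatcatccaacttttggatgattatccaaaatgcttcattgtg
Rps10-ps1 (chr3:95622278-95622772, plus), Rps16-ps2 (chr5:129128077-129128517, minus) and Rpl23a-ps3 (chr14:34170655-34171122, plus) had 0 mismatches over the same stretch, so one line each serves for copy and parent.
Rps10: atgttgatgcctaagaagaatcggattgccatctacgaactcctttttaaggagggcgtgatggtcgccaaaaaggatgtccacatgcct
Rps16: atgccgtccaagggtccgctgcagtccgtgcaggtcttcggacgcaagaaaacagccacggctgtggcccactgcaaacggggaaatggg
Rpl23a: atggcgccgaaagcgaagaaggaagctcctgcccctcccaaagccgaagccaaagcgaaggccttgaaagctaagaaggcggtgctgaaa
Over its whole length Rps16-ps2 was identical to a stretch of the Rps16 mRNA (441 bases, 0 mismatches), while Rpsa-ps11 differed from Rpsa at 37 of 889 aligned bases and Rplp0-ps1 from Rplp0 at 40 of 933.

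Most copies were close to their parents over the part that aligned. Over all 153 copies the identity in the best local alignment to a parent transcript had a median of 98.8% (quartiles 97.3% and 99.5%). Cut into windows of 50 bases, a copy shared a median of 50.1% of its windows exactly with its parent, 13 copies shared all of them and 3 shared none. Of the 3, Rpl36a-ps3 had 87.5% identity, while Rpl18-ps1 and Rps7-ps2 aligned over only 41 and 26 bases and matched in the antisense direction, as did Rpl13-ps1. The sources used here do not say how reads that fit several sites were placed. Counts of a copy and of its parent can therefore hold each other's reads, and every value of a member with shared windows is uncertain to that extent.

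Counted levels went with likeness. Copies took 49.8% of the summed baseMean of the 233 members, and 66.9% within the 51 families that have copies. The members together made up 1.51% of the baseMean of all rows. In 35 of the 51 families the copies summed to more than their parent. Rpsa-ps10 alone had a baseMean of 22729 and all 9 copies of Rpsa together 38906, against 5823 for Rpsa, a small subunit protein also known as a laminin receptor. Rpl23a-ps3 had 3798 against 193 for Rpl23a, a large subunit protein at the exit of the nascent chain, the highest ratio of a copy to its parent (19.7). Per kb of transcript, with the parent taken as its mRNA with the longest coding sequence, 68 copies of 33 parents had a level above their parent. The median level per kb was 166 in the 10 copies with under 10% of windows shared, 614 in the 65 with 10 to 50%, 3924 in the 60 with 50 to 90%, and 11970 in the 18 with 90% or more, of which 17 lay above their parent. Across the 153 copies Spearman's rho between identity and level per kb was 0.72, a description of points that share parents, libraries and aligner. Without scaling to length, 62 of the 153 ribosomal copies exceeded their parent's baseMean, against 29 of 171 other named copies, those outside the symbol rule.

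**Figure D1:**
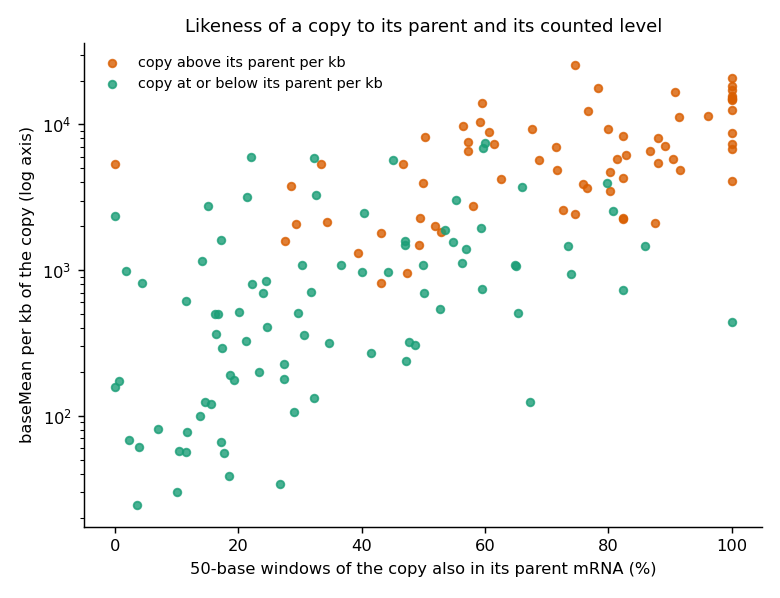
Level of each of the 153 copies (baseMean per kb, log axis) against the percentage of its 50-base windows found in its parent's mRNA. Copies above their parent per kb (68) gather at the right, and 17 of the 18 copies with 90% or more of their windows shared are among them.

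The first comparison asked how ribosomal protein genes stood in cortices that lack HAR1984. No gene passed the test: 0 of 80 had an adjusted p under 0.05, where 0.501% of all tested rows were higher and 0.475% lower. The tests are Wald tests of the authors' DESeq2 fit, with p recomputed from the deposited statistic and adjusted by Benjamini-Hochberg over all tested rows. At an unadjusted p under 0.05, 7 genes were higher and 0 lower, where 5.19% of all rows were higher and 4.31% lower. The median log2 fold change of the 80 was 0.092, with 57 of 80 above 0, against -0.0060 and 48.4% above 0 over all rows with a baseMean of at least 20. The median was 0.11 for the 32 genes of the 40S subunit (26 above 0), 0.060 for the 45 of the 60S subunit (28 above 0) and 0.15 for the 3 P stalk genes (3 above 0).

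In the knock-in, in which one allele is human, no gene passed the test either. Of the 80 genes 0 had an adjusted p under 0.05, where 0.0895% of all tested rows were higher and 0.0471% lower. At an unadjusted p under 0.05, 21 genes were higher and 1 lower, where 3.53% of all rows were higher and 3.39% lower. The median was 0.14 with 69 of 80 above 0, against 0.0062 and 51.6% over all rows. It was 0.21 for 40S genes (27 of 32 above 0), 0.11 for 60S genes (39 of 45) and 0.19 for P stalk genes (3 of 3). These data are from bulk tissue, in which more cells of a type and more RNA per cell cannot be told apart.

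**Figure D2:**
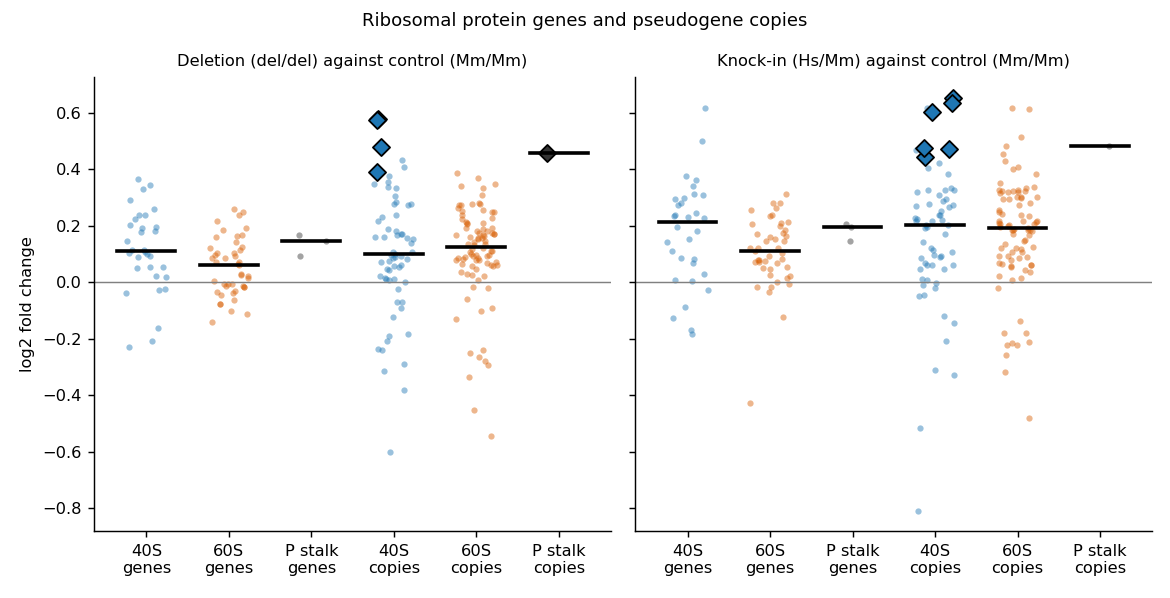
Log2 fold changes of the 80 genes and 153 copies by subunit, in the deletion (left) and the knock-in (right), each against control. Each point is a member, bars are medians and diamonds are members with an adjusted p under 0.05: 5 copies in the deletion and 6 in knock-in cortices, and no gene in either.

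The genes with the highest log2 fold changes were mostly small subunit genes. Rps29, a short zinc-binding protein of the 40S head, had 0.36 (SE 0.17, adjusted p = 0.421) in the deletion and 0.62 (SE 0.17, adjusted p = 0.0785) in knock-in cortices, the smallest adjusted p of a gene there. Rps20, a protein of the 40S head, had 0.33 (SE 0.12, adjusted p = 0.208) in the deletion, the smallest of a gene in that comparison, and 0.38 (SE 0.12, adjusted p = 0.254) in the knock-in. Rps21 had 0.35 and 0.34, Rps14, which lies on the 40S platform, 0.29 and 0.31, and Rps27, another zinc-binding protein, 0.26 and 0.36, in deletion and knock-in. Rps23, in the decoding centre, had 0.20 in the deletion and 0.31 in knock-in cortices. Rps3, which guards the mRNA entry, had 0.24 and 0.29.

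Some small subunit genes lay below 0 instead. Rpsa had -0.23 (SE 0.12, adjusted p = 0.573) in the deletion and -0.18 (SE 0.12, adjusted p = 0.807) in knock-in cortices. Rps26, which contacts mRNA upstream of the start codon, had -0.21 and -0.17. Rps6, the phosphorylated target of S6 kinases, had -0.16 in the deletion and -0.028 in knock-in cortices. Rps28 had 0.018 and -0.088, and Rps4l, annotated as a transcribed processed pseudogene despite its name, 0.053 and -0.13. Rps19, the gene most often mutated in human Diamond-Blackfan anaemia, had 0.19 (SE 0.12) in the deletion and 0.24 (SE 0.12) in knock-in cortices (adjusted p = 0.691 and 0.717). Rps4x, which is X-linked, and Rps27a, made as a fusion with ubiquitin, had 0.053 and 0.091 in the deletion, and 0.14 and 0.23 in the knock-in.

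Large subunit genes ran from -0.14 to 0.26 in the deletion and from -0.43 to 0.31 in knock-in cortices. Their highest values in the deletion were those of Rpl32l (0.26, SE 0.13), a row annotated as a processed pseudogene, Rpl38 (0.25, SE 0.15), a protein known in mice for its role in patterning of the axial skeleton, and Rpl36 (0.24, SE 0.18). In the knock-in the highest was Rpl12 (0.31, SE 0.19), a protein at the base of the stalk. The lowest value of a large subunit gene was that of Rpl23a, with -0.14 (SE 0.18, adjusted p = 0.922) in the deletion and -0.43 (SE 0.18, adjusted p = 0.579) in knock-in cortices. It was followed on the low side by Rpl10a (-0.11 in the deletion and -0.12 in knock-in cortices), which lies in the L1 stalk, and in the deletion by Rpl31 (-0.10), Rpl29 (-0.076) and Rpl30 (-0.076). In the knock-in Rpl13 had -0.034. Rpl5 and Rpl11, which with 5S RNA bind MDM2 when ribosome assembly fails, had -0.038 and 0.10 in the deletion, and 0.023 and 0.12 in the knock-in. The X-linked Rpl10, Rpl36a and Rpl39 had -0.030, -0.0062 and 0.096 in the deletion, and 0.092, 0.067 and 0.24 in the knock-in.

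The P stalk proteins were close to each other. Rplp0, which anchors the stalk, had 0.17 (SE 0.095, adjusted p = 0.605) in the deletion and 0.21 (SE 0.095, adjusted p = 0.625) in knock-in cortices. Its partners Rplp1 and Rplp2 had 0.094 and 0.15 in the deletion, and 0.19 and 0.14 in the knock-in. By baseMean the most counted genes were Rpl4 (34793), Rplp0 (27139), Rps3 (24569.7) and Rpl8 (19133), and Rpl4 lay near 0, at 0.023 in the deletion and 0.079 in knock-in cortices. Genes without a copy among the members had medians of 0.096 in the deletion and 0.19 in knock-in cortices (29 genes), and those with a copy 0.085 and 0.11 (51 genes).

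**Figure D3:**
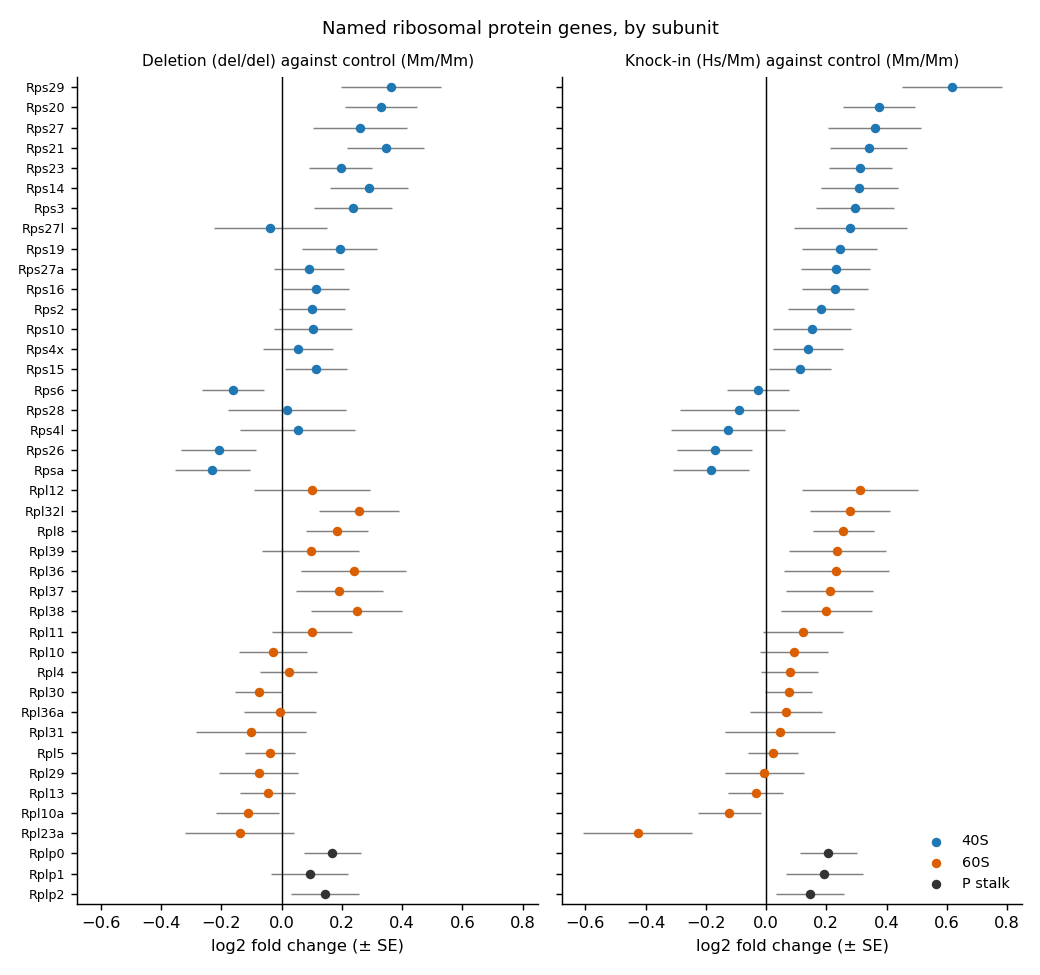
Log2 fold change with SE of 41 of the 80 genes, those given by name here, in the deletion (left) and the knock-in (right), ordered within each subunit by the knock-in value. Rps29 heads the 40S genes in the knock-in, Rpl23a is lowest, and no gene passed the test in either panel.

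Copies were the members that passed. In the deletion 5 of the 151 copies tested rose and 0 fell (2 have no deposited adjusted p), where 0.501% of all tested rows were called higher. They were Rps15-ps2 (0.48, SE 0.13, adjusted p = 0.0321), Rps2-ps11 (0.58, SE 0.16, adjusted p = 0.0448), Rps10-ps1 (0.58, SE 0.16, adjusted p = 0.0467), Rplp0-ps1 (0.46, SE 0.13, adjusted p = 0.0468) and Rpsa-ps11 (0.39, SE 0.11, adjusted p = 0.0477). All 5 lay close to the threshold. With p adjusted over every row that has one, rather than over those the authors' fit kept, 0 of them passed.

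In the knock-in 6 copies rose and 0 fell, where 0.0895% of all tested rows were called higher. Rps19-ps1 had 0.64 (SE 0.12, adjusted p = 0.000466) and Rps15-ps2 0.60 (SE 0.13, adjusted p = 0.00548). Rpsa-ps11 had 0.47 (SE 0.11, adjusted p = 0.0273), Rps16-ps2 0.44 (SE 0.11, adjusted p = 0.0469), Rps10-ps1 0.65 (SE 0.16, adjusted p = 0.0487) and Rps19-ps6 0.48 (SE 0.12, adjusted p = 0.0487). With p adjusted over every row that has one, 3 of the members passed. The copies called in one comparison had these values in the other. Rps2-ps11 and Rplp0-ps1 had 0.62 (adjusted p = 0.0699) and 0.48 (adjusted p = 0.0826) in the knock-in, and Rps19-ps1, Rps16-ps2 and Rps19-ps6 had 0.41 (adjusted p = 0.0698), 0.35 (adjusted p = 0.098) and 0.34 (adjusted p = 0.185) in the deletion. All 8 called copies belong to 40S or P stalk families, which hold 64 and 1 of the 153 copies, against 88 in 60S families. In the knock-in, 22 of the 64 and 28 of the 88 were higher at an unadjusted p under 0.05, and 1 and 0 lower. In the deletion these counts were 11 and 8 higher, and 1 and 1 lower. Over all tested rows 3.53% were higher and 3.39% lower in the knock-in, and 5.19% and 4.31% in the deletion.

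The parents of the called copies did not pass. In the deletion Rps15 had 0.12, Rps2 0.099, Rps10 0.10, Rplp0 0.17 and Rpsa -0.23. In the knock-in Rps19 had 0.24, Rps15 0.11, Rpsa -0.18, Rps16 0.23 and Rps10 0.15. Other copies of the same parents varied. Rps10-ps2, which shares 76.7% of its windows with Rps10, had 0.013 in the deletion and -0.049 in knock-in cortices, where Rps10-ps1, which shares 50.2%, rose in both. Among the 7 copies of Rps19 the knock-in values ran from 0.0071 (Rps19-ps3) to 0.64 (Rps19-ps1), and among the 9 of Rpsa from -0.52 (Rpsa-ps3) to 0.47 (Rpsa-ps11).

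**Figure D4:**
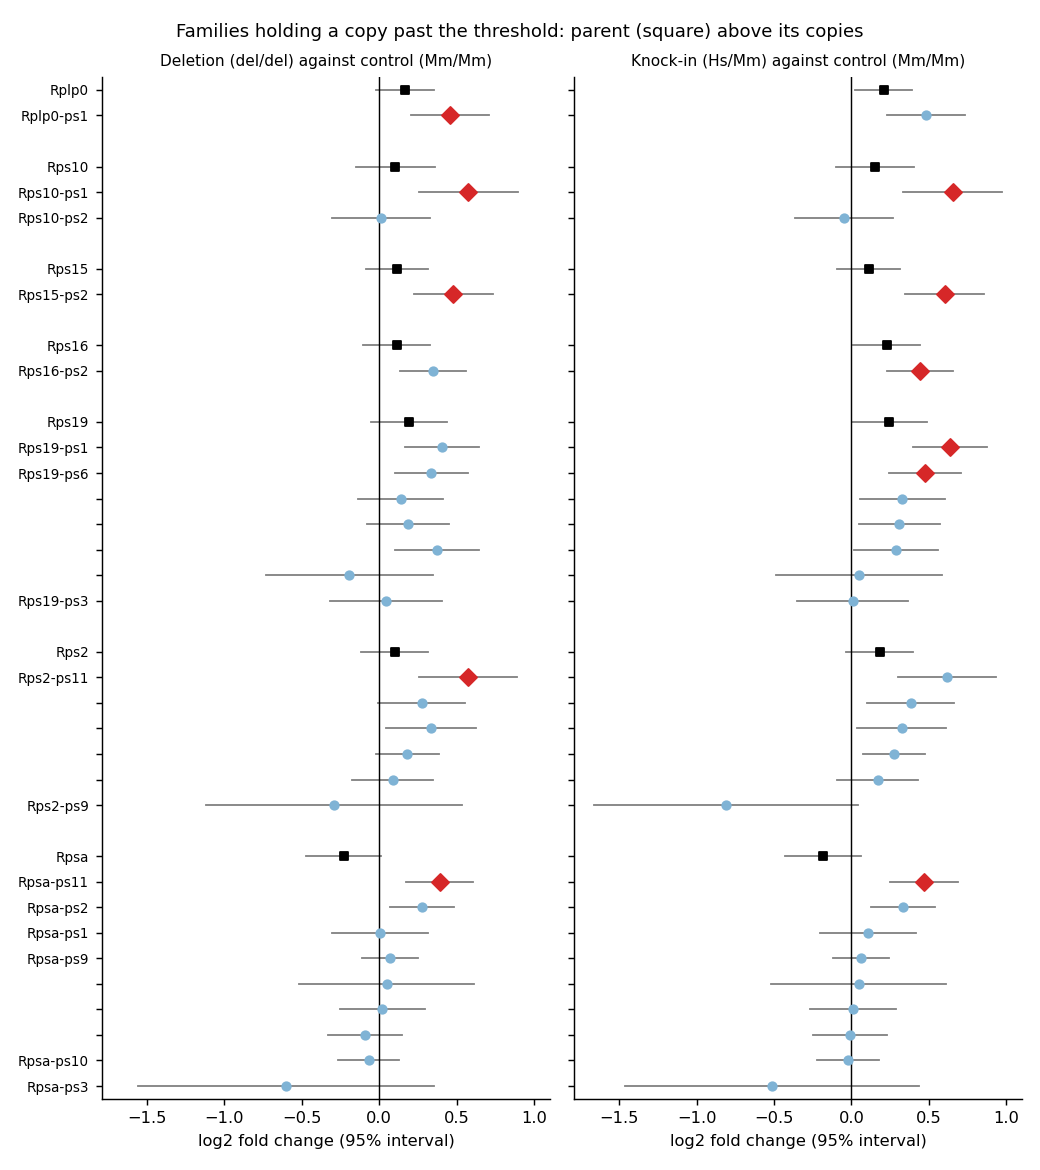
Log2 fold changes with 95% intervals in the 7 families that hold a called copy, in the deletion (left) and the knock-in (right). The parent (black square) stands above its copies, and red diamonds have an adjusted p under 0.05; copies without a name on the axis are not described individually. Every interval of a parent in the deletion reaches 0, and the point of Rpsa lies left of 0 in both panels while the interval of Rpsa-ps11 lies right of 0.

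The remaining copies lay on both sides of 0. Over all 153 copies, called ones included, the median was 0.11 in the deletion (124 of 153 above 0) and 0.20 in the knock-in (130 of 153), and at an unadjusted p under 0.05 there were 20 higher and 2 lower in the deletion, and 51 higher and 1 lower in the knock-in. Over all tested rows the shares at that level were 5.19% higher and 4.31% lower in the deletion, and 3.53% higher and 3.39% lower in the knock-in. With no minimum baseMean the median of the copies in the knock-in was 0.12, below the 0.14 of the genes. By subunit, 40S copies had medians of 0.099 and 0.20 (64 copies), and 60S copies 0.13 and 0.19 (88 copies), in deletion and knock-in. Beyond the called ones, Rpl31-ps4 had 0.39 (SE 0.24) in the deletion. Among the high values in the knock-in were those of Rpl12-ps1 (0.61, SE 0.24), Rpl35a-ps5 (0.52, SE 0.16, adjusted p = 0.207) and Rpl21-ps11 (0.48, SE 0.26). At the other end most copies had few counts. Rps2-ps9 (baseMean 24.9) had -0.29 and -0.81, Rpsa-ps3 (21.5) -0.60 and -0.52, Rpl7a-ps8 (45.5) -0.45 and -0.48, Rps6-ps2 (41.4) -0.31 and -0.33, Rpl31-ps13 (115) -0.33 and -0.32, and Rpl23a-ps1 (26.7) -0.29 and -0.26, in deletion and knock-in. Rpl19-ps10 (58.1) had -0.54 in the deletion, and Rpl26-ps4 (29.8) -0.22 in the knock-in. Rps24-ps2, with a baseMean of 460, had -0.38 (SE 0.14, adjusted p = 0.236) in the deletion and -0.31 (SE 0.14, adjusted p = 0.63) in knock-in cortices. The 5 most counted copies lay between these extremes: Rpsa-ps10 had -0.069 and -0.022, Rps6-ps4 0.0097 and 0.095, Rpl3-ps1 0.092 and 0.15, Rpl14-ps1 0.11 and 0.15, and Rpl10a-ps1 0.088 and 0.21.

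Each copy was then set against its parent by the difference of their log2 fold changes, copy minus parent. The SE of this gap combined both SEs as if independent, although both rows come from the same libraries, and p-values were adjusted over all 324 named copy and parent pairs with both rows at a baseMean of at least 20, 153 of them ribosomal. In the deletion the copy was above its parent in 103 of 153 pairs, with a median gap of 0.084. For the 171 other named pairs, those outside the symbol rule, the median was 0.0020, with the copy above in 87. These other pairs are not free of ribosomal rows. Their highest parent value in the knock-in (0.51) is that of a ribosomal paralogue or fused gene outside the rule. No ribosomal gap passed in the deletion, with 11 at an unadjusted p under 0.05, where 4.63% of all 324 pairs were. In the knock-in the copy was above in 113 of 153 pairs, with a median gap of 0.12, against 0.021 and 95 of 171 for the other pairs. There 1 gap passed, where 0.309% of all pairs did, and 14 ribosomal gaps had an unadjusted p under 0.05, where 7.41% of all pairs did.

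The gap that passed was that of Rpsa-ps11. It was 0.65 (SE 0.17, adjusted p = 0.0307) in the knock-in and 0.62 (SE 0.17, adjusted p = 0.0666) in the deletion. With the SE taken as the sum of both SEs, it did not pass in the knock-in. Rpsa-ps11 shares 17.3% of its windows with Rpsa, and its level per kb was 1604, against 3642 for Rpsa. The gap with the next smallest p in the knock-in was that of Rpl23a-ps3, which shares 88.1% of its windows with Rpl23a, with 0.72 (SE 0.21, adjusted p = 0.122) in the knock-in and 0.32 (SE 0.21, adjusted p = 0.995) in the deletion. Rpsa-ps2, sharing 60.6%, had 0.52 (SE 0.16, adjusted p = 0.176) in the knock-in and 0.51 (SE 0.16, adjusted p = 0.319) in the deletion. Rps15-ps2, sharing 22.1%, had 0.49 (SE 0.17, adjusted p = 0.248) in the knock-in. All 3 of the Rpsa and Rpl23a gaps above include a parent below 0. The remaining copies of Rpsa had gaps between -0.37 (Rpsa-ps3) and 0.30 (Rpsa-ps9) in the deletion, and between -0.33 (Rpsa-ps3) and 0.29 (Rpsa-ps1) in the knock-in. Of the called copies, Rps10-ps1 had gaps of 0.47 in the deletion and 0.50 in knock-in cortices, Rps2-ps11 of 0.48 and 0.44, Rps19-ps1 of 0.22 and 0.39, Rplp0-ps1 of 0.29 and 0.27, Rps16-ps2 of 0.23 and 0.21, and Rps19-ps6 of 0.15 and 0.23, and none of these passed.

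The gap was then set against the baseMean of the copy. In the deletion Spearman's rho between gap and baseMean was 0.11 over 153 copies, and in the knock-in 0.26. With 51 parents behind the 153 points and the same libraries behind all, these are descriptions. For the 171 other named pairs they were 0.064 in the deletion and 0.22 in knock-in cortices. The size of the gap regardless of sign had a rho of -0.24 in the deletion and -0.070 in knock-in cortices, and the SE of the gap one of -0.70 in both. In the knock-in the median gap was 0.0059 for the 23 copies with a baseMean of 20 to 100, 0.038 for the 34 from 100 to 500, 0.11 for the 43 from 500 to 2000, 0.14 for the 35 from 2000 to 5000 and 0.15 for the 18 above. In the deletion these medians were 0.12, 0.015, 0.084, 0.083 and 0.11. In the knock-in 12 of 23 copies lay above their parent in the lowest bin and 15 of 18 in the highest, and in the deletion 14 of 23 and 14 of 18. The median SE of the gap was 0.34 in the lowest bin and 0.16 in the highest in both comparisons.

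**Figure D5:**
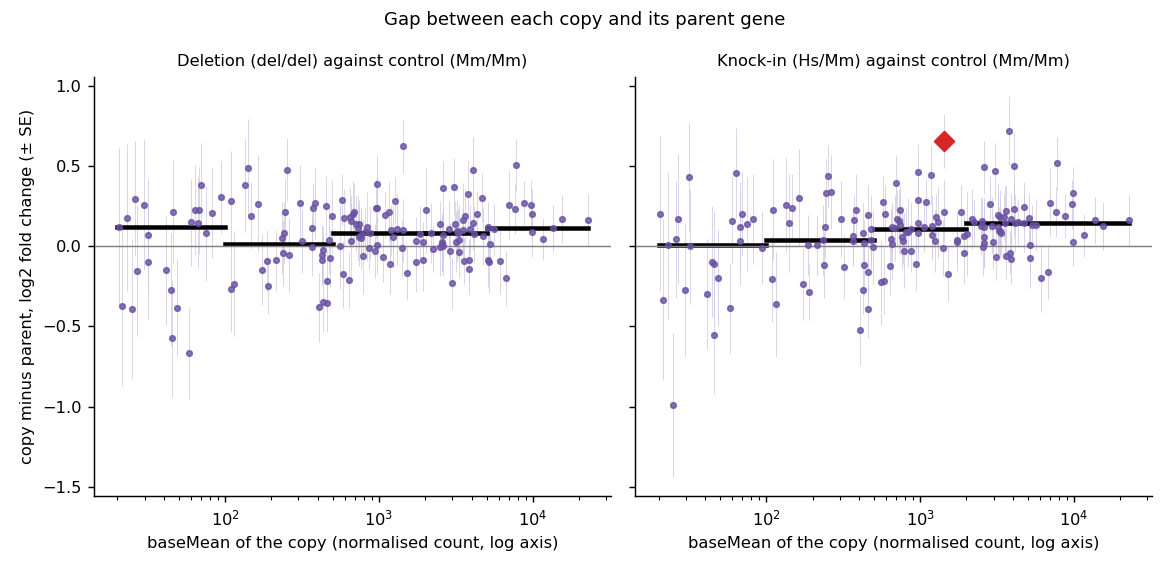
Copy minus parent difference in log2 fold change, with SE, against the baseMean of the copy (log axis) for the 153 pairs, in the deletion (left) and the knock-in (right). Black bars are medians within bins of baseMean, from 0.0059 in the lowest to 0.15 in the highest bin of the knock-in, and the red diamond is Rpsa-ps11, the gap that passed the test.

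Likeness to the parent was set against the gap as well. Spearman's rho between shared windows and the gap was 0.090 in the deletion and 0.20 in knock-in cortices over the 153 copies, which share parents and libraries. In the 18 copies with 90% or more of windows shared the copy was above its parent in 15 in the deletion and 16 in knock-in cortices, with median gaps of 0.12 and 0.16. In the 10 copies with under 10% shared it was above in 6 and 6, with medians of 0.044 and 0.0057.

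No member passed a test of the difference between the 2 genotypes. Of 231 members tested for the difference of deletion minus knock-in, 0 passed at an adjusted p under 0.05 and 0 had an unadjusted p under 0.05, where 0.00528% and 2.0% of all 18928 tested rows did. The SE of this difference ignores that both comparisons use the same controls, which makes it too wide, so that the test says little about likeness.

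Rows beyond the rule were looked at for context. Of the rows named as ribosomal paralogues or fused genes, 12 of 15 listed were found at a baseMean of at least 20, 2 of them (Rps27l and Rps4l) also members, and 0 passed in either comparison (unadjusted p under 0.05: 2 higher in the deletion, 7 higher in the knock-in, where 5.19% and 3.53% of all tested rows were higher). Their medians were 0.14 in the deletion and 0.26 in knock-in cortices. Fau, a fusion that yields a small subunit protein, had -0.025 in the deletion and -0.024 in knock-in cortices. Another 292 rows outside the rule, 287 of them typed as pseudogenes, shared at least 20% of their 50-base windows with a ribosomal protein gene. They had medians of 0.10 in the deletion and 0.18 in knock-in cortices, with 2 and 1 called higher, where 0.501% and 0.0895% of all tested rows were.

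Of other lists around translation, 0 genes passed in either comparison. Mitochondrial ribosomal proteins (78 genes), which are encoded in the nucleus and build the ribosome of mitochondria, had medians of 0.0071 in the deletion and 0.058 in knock-in cortices, with 5 and 6 higher at an unadjusted p under 0.05 and 1 and 0 lower. At that level 5.19% of all tested rows were higher and 4.31% lower in the deletion, and 3.53% and 3.39% in the knock-in, and the counts of the lists that follow are to be read against these shares. Initiation factors (38) had 0.0027 and 0.042, with 3 and 2 higher and 1 and 0 lower, elongation factors and other genes with an oligopyrimidine tract (16) had -0.021 and 0.028, with 2 and 1 higher and 1 and 0 lower, and ribosome biogenesis factors (40) had -0.048 and 0.028, with 0 higher and 2 and 0 lower. RNA polymerase I and its factors (11) had 0.038 and 0.069, with 0 and 2 higher and 1 and 0 lower, and snoRNA host genes (15 of 18 found) 0.012 and 0.11, with 1 and 3 higher and 0 and 1 lower. The mTORC1 genes and regulators of such tracts (14) had -0.0084 and -0.0046, and p53 targets (13) 0.019 and 0.081, each with 0 higher in both and 1 and 0 lower. Among the smallest p-values of these lists in the knock-in were those of Polr1c, a subunit of RNA polymerases I and III (0.29, SE 0.084, adjusted p = 0.152), the snoRNA host Snhg8 (0.44, SE 0.15, adjusted p = 0.315) and Tpt1, another mRNA with an oligopyrimidine tract (0.32, SE 0.12, adjusted p = 0.428). In the deletion they were those of the cap-binding factor gene Eif4e (-0.17, SE 0.060, adjusted p = 0.185) and Mrpl28 (0.23, SE 0.092, adjusted p = 0.311).

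Other rows grouped by transcript length, and marker genes of cell types, were set beside these values. Other protein-coding rows with under 1000 bases of exon had medians of 0.048 in the deletion and 0.12 in knock-in cortices (275 rows), those of 1000 to 2000 bases 0.023 and 0.063 (1439), those of 2000 to 4000 bases -0.0031 and 0.024 (4376), and longer ones -0.020 and -0.012 (8311). Length here joins all annotated exons of a gene, so it can exceed the length of a single mRNA. The ribosomal genes were not sorted into these bins, so no bin serves as their matched background. The other 2143 pseudogene rows had -0.019 and 0.048. Among marker lists, 7 of 7 meningeal and 6 of 6 endothelial markers were above 0 in both comparisons (medians of meningeal markers 0.82 and 0.54, of endothelial markers 0.59 and 0.32, deletion and knock-in), and 7 of 7 interneuron markers were below 0 (medians -0.69 and -0.66). Of the 7 striatal markers 6 were below 0 in each comparison (medians -1.51 and -0.86), and of the 6 microglial markers 5 were above 0 in each (0.46 and 0.30). Red cell markers had a median of -0.23 in the deletion, with 6 of 7 below 0, and of 0.27 in knock-in cortices, with 7 of 7 above 0 and 4 at an unadjusted p under 0.05. The 8 radial glia markers had medians of -0.17 in the deletion and 0.24 in knock-in cortices, the 4 of intermediate progenitors -0.14 and 0.37, and the 6 of cortical projection neurons 0.13 and 0.076. All 3 of these lists were counted, with a median baseMean of 7779, 6336 and 17709, so that RNA of neurons was present in cortices labelled as neural progenitors. The part of length, tissue makeup or read placement in the values of the ribosomal rows was not tested.

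Promoters of the genes were read where RefSeq tables (GRCm38.p6) held them, for 58 of the 80. The letters CCGGAAG, the core of sites bound by ETS factors, were found on either strand from 250 bases before to 50 after the start in 24 of the 58 (41.4%), against 9.93% of all 27025 genes with a promoter and 17.9% of the 11905 with a baseMean of at least 20. TATAAA was found in 7 of the 58 (12.1%), against 15.7% and 8.84%, and the 2 motifs do not overlap in their letters. The median log2 fold change of the 24 genes with CCGGAAG was 0.084 in the deletion and 0.13 in knock-in cortices, and that of the 34 without it 0.089 and 0.11. Knock-in values ran from -0.18 to 0.34 in the 24 and from -0.12 to 0.36 in the 34. Rps29, Rps20 and Rpl23a lie outside these ranges and are not among the 58. A match describes the letters alone. The last 100 bases before the start of Rps10, parent of Rps10-ps1 (chr17:27635245-27635344, minus strand), and of Rpl37 (chr15:5116513-5116612, plus strand) are shown as examples, with matches in capitals.
Rps10: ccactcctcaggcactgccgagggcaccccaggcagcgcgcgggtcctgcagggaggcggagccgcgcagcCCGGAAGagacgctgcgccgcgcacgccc
Rpl37: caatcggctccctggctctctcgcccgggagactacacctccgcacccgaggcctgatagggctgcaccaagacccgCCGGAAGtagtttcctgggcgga

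The surroundings of the called copies differed. Rps19-ps6 lies in an intron of Tecpr2 on the same strand, and Tecpr2 had 0.078 (SE 0.11) in the deletion and -0.046 (SE 0.12) in knock-in cortices. Rps2-ps11 lies in an intron of Usp4 on the opposite strand, and Usp4 had 0.035 (SE 0.057) and -0.031 (SE 0.058). Rps16-ps2 lies in an intron of Adgrd1 on the opposite strand, and Adgrd1 had -0.096 (SE 0.38) and 0.076 (SE 0.38). Rplp0-ps1 is annotated in an intron of Flg on the same strand. Rps10-ps1, Rps15-ps2, Rps19-ps1 and Rpsa-ps11 overlap no other gene in the annotation. Over all copies, 16 lay in an intron of a gene on the same strand and 37 on the opposite strand, 4 overlapped an exon on the same strand and 3 on the opposite strand.

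The authors' deposited table gives many more calls in the knock-in. Of the members, 58 have an adjusted p under 0.05 in the authors' deposited table (15 genes and 43 copies, 57 higher and 1 lower, Rpl23a), where 2.33% of all tested rows do as higher and 2.05% as lower. For all 58 the p-value in the authors' deposited table equals 1/1000 of the p of the statistic beside it, as for 923 rows in all. Rps29, for instance, has an adjusted p of 7.42e-05 in the authors' deposited table and 0.0785 when it is recomputed. Of the 58, 6 passed when recomputed. In the deletion 0 members have such a p-value, and 5 copies pass in the authors' deposited table, where 0.522% of all tested rows do as higher and 0.512% as lower.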

How the data were processed

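RNA-seq of 9 libraries in 3 groups was held as the authors' deposited comparison tables, deletion or knock-in against control. DESeq2 gave the authors, per the file headers, a log2 fold change with its SE and a Wald statistic (a score) for each gene. Raw and adjusted p-values of that fit were deposited beside them. BaseMean, as deposited, is a signal: normalised counts averaged over the samples. Per the submitters' processing notes, cutadapt, Bowtie2 2.4.4 and STAR 2.7.9a were used; counting method and annotation release are not named. The 12 columns headed FPKM were not used: all 235530 values of the deletion table and all 242196 of the knock-in table equalled baseMean times successive normal random numbers (mean 1, SD 0.1, seed 42 in R) within 1e-09, so values, spread and depth per library are unknown here. Replicate numbers in the labels are not said to mark shared litters or animals, and p-values measure the spread between these libraries, which may be technical.

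Effects were the deposited statistic times its SE, with a 2-sided normal p adjusted by Benjamini-Hochberg over rows with a deposited adjusted p (18952 in the deletion, 21222 in the knock-in) and a threshold of 0.05. This replaced the deposited p because 930 p-values of the knock-in and 4 of the deletion disagree with their statistic. Copies and parents were compared in GENCODE M21 transcripts (local alignment, Biopython 1.88, and exact 50-base windows). Other steps ran in Python 3.11.15 (scipy 1.17.1, pandas 2.3.3, numpy 2.4.6), figures in matplotlib 3.10.9, and the steps were tested on simulated data. The members, lists and tests were chosen with earlier results of these data known. Named genes were members past the threshold, the 8 highest and lowest effects and the 5 highest baseMeans among genes and among copies, pairs whose gap passed with their family, a set of well-known members, and the smallest p-values of the lists. Some members that meet this rule are not reported here. Rpl23a-ps3, Rpsa-ps2 and the Rpl37 promoter were chosen after their values were seen. Alternatives were other thresholds, adjustment sets, minimum baseMeans, a fold limit, centring and the deposited values.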

Additional observations from a re-analysis of the deposited data

How the results depend on the processing

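In the deletion the 5 called members became 0 at a threshold of 0.01, 0 with p adjusted over every gene that has one and 0 with a fold of at least 1.5 required. In the knock-in the 6 became 2 at 0.01, 3 with p adjusted over every gene, 3 with the fold limit and 58 with the authors' deposited adjusted p. Of the ribosomal gaps 1 passed at a threshold of 0.1 in the deletion, and 0 passed in the knock-in with the SE taken as the sum of both. The other 32 alternative values of the main results stayed within 1.5 times the count, or within the median SE of a median or 1 over the root of n - 3 of a rank correlation. Among them, with no minimum baseMean the median of the copies in the knock-in moved to 0.12 and the rank correlation of gap and baseMean in the deletion to 0.041. The settings for the 8 called copies altered p-values, the threshold or the fold limit but not the effects, so the sign was not tested. The deposited log2 fold changes of members equal the statistic times its SE, so using them could not move a member's effect. No paired analysis was possible because no values per library were used, and for the same reason no library could be left out. Precision is limited by 3 libraries a group and, for copies with a baseMean under 100, by a median SE of the gap of 0.34.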
